A study of Homo sapiens with 32 samples.

Results

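The regions described here are the m6A peaks of human chromosome 18 in A375 cells, an established human melanoma line, with and without knockdown of METTL3. All peaks on chromosome 18 in the lists of 4 libraries were taken, 963 and 940 from the shMETTL3 libraries and 896 and 954 from the shControl libraries. Overlapping peaks of 1 strand (by 1 bp or more) were merged, which gave 1380 loci of 66409 in the whole genome. The loci were chosen by their chromosome and their peak calls, and the calls also set the classes used below. Knockdown cells carried a hairpin RNA against METTL3 and control cells a control hairpin RNA, and each group had 2 libraries. In both groups the RNA was the chromatin-associated fraction after removal of ribosomal RNA, so unspliced transcripts can contribute. The other libraries of the series, which held 32 samples in 16 groups, were not used here. Nothing in the labels says that replicates were separate cultures, so p-values measure the spread between these libraries, which may be technical.

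N6-methyladenosine (m6A) is a methyl mark that a complex with METTL3 as its catalytic subunit places on adenosines of nascent and mature RNA, most often in a short motif whose commonest core is GGAC. The mark is read by proteins that affect splicing, decay and translation of the RNA. It can be placed on introns and on non-coding RNA as well as on mRNA, and RNA that is still attached to chromatin is rich in introns. In MeRIP-seq, RNA fragments are captured with an m6A antibody, and a peak is a stretch where fragments are enriched. A peak list says where enrichment passed the caller's threshold; it measures neither the amount of an RNA nor the share of its copies that are methylated. A peak can therefore disappear from a list with less methylation or with less of the RNA, and these cannot be told apart here.

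A locus was knockdown-only with a peak in both shMETTL3 lists and neither shControl list. It was control-only in the reverse case. Both kinds together are called group-specific below, and the remaining loci were in all 4 lists or held by another combination of lists. The classes follow from which peaks were called, so their counts are a description without a test. The chromosome was picked with genome-wide results of these data known, so its place among the autosomes is not independent support for anything. Loci of 1 transcript share that transcript and are not independent of each other.

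Some loci began at a gene's first transcribed bases, and the sequence there shows what such a locus covers. RefSeq start windows (GRCh38.p14, 250 bases before to 50 bases after a gene start) of chromosome 18 were overlapped by a locus of the same strand in 54 of 721 cases. The stretches below are from genes that led a class or a gene list by number of loci. In each, a locus in all 4 lists covered a GGAC in the 50 transcribed bases of a start window. The 30 bases around it are printed 5′ to 3′ on the gene's strand, with GGAC in capitals. A gene can have several start windows, and the one printed for NEDD4L lies inside the gene.
NDC80 (chr18:2571574-2571603, plus strand): gcgggccgaggaaGGACctggtgttttgat
CEP192 (chr18:12991358-12991387, plus strand): ttgcagtgccctgGGACacctcttcagtcc
ROCK1 (chr18:21111764-21111793, minus strand): gtttgtttgaacaggaaggcGGACatatta
DCC (chr18:52340197-52340226, plus strand): gcacaccgctggcGGACaccccagtaacaa
NEDD4L (chr18:58255527-58255556, plus strand): agtttggcagatgGGACactttttcttgga

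The letters GGAC stood on the transcribed strand in 38 of the 54 overlapped windows (70.4%), in 62.0% of all 721 windows of chromosome 18 and in 66.3% of the 35116 windows in the table. On the opposite strand of all windows the share was 66.1%. Within the 50 transcribed bases alone, GGAC occurred in 38.9% of the overlapped windows, 17.6% of chromosome 18 windows and 18.9% of all windows. Windows of 1 gene can overlap each other, and a match describes the sequence and is not evidence of a methylated site.
The loci that held these stretches differed in how their enrichment compared between groups. At the start of NDC80, which encodes a microtubule-binding protein of the outer kinetochore, the fold enrichment was 6.41 and 6.42 in the shMETTL3 libraries, against 4.53 and 3.56 in the shControl libraries. At the start of ROCK1, a kinase that acts on the actin cytoskeleton, it was 3.96 and 4.25 in the shMETTL3 libraries, against 8.78 and 6.13 in the shControl libraries. The groups did not overlap at either start, and they stood in opposite order. At the DCC start the folds were 9.004 and 7.614 in the shMETTL3 libraries and 7.596 and 5.613 in the shControl libraries. The printed NEDD4L start lies inside the gene, whose span begins at chr18:58044226. Folds there were 2.25 and 2.89 in the shMETTL3 libraries and 2.107 and 2.003 in the shControl libraries. CEP192, a scaffold of the centrosome, had closer folds at its start, 3.20 and 3.14 in the shMETTL3 libraries and 3.05 and 2.99 in the shControl libraries. Both shMETTL3 folds were thus above both shControl folds at 4 of the 5 printed starts and below them at 1, beside 31.6% and 21.5% of all shared loci genome-wide. Starts of the same kind in genes not printed went both ways. Both shMETTL3 folds were below both shControl folds in LINC00667, CHMP1B, LOC105372004 and CXXC1. They were above in SS18, KCTD1 and TIMM21, and the groups overlapped in MIB1 and NETO1. The 5 printed starts carry no direction for gene starts.

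Chromosome 18 took a larger part of the knockdown lists than of the control lists. It held 2.26% and 2.26% of the autosomal peaks in the shMETTL3 lists, against 2.04% and 2.07% in the shControl lists, so the groups did not overlap. The mean peak number was 951.5 ± 16.3 in shMETTL3 and 925 ± 41.0 in shControl (SD, n = 2 each), a ratio of 1.03. Over the other 21 autosomes that ratio had a median of 0.946, the lowest was 0.872 on chromosome 17 and the highest was 1.06 on chromosome 21. Peaks of chromosome 18 covered 441.8 and 430.9 kb in the shMETTL3 lists, against 375.3 and 399.4 kb in the shControl lists. Their median fold enrichment was 3.92 and 3.99 in the shMETTL3 lists and 3.84 and 3.58 in the shControl lists. The folds are the authors' values from the peak caller at each summit. The weakest chromosome 18 peaks had a −log10 q of 2.031 and 2.103 in the shMETTL3 lists and 2.36 and 2.14 in the shControl lists; peaks under the caller's threshold are not in the lists.

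Among the 1380 loci, 489 were in all 4 lists (35.4%, against 35.7% on the other autosomes), 165 were knockdown-only, 144 were control-only and 582 were held by other combinations, 386 of these by a single list. Of the 721 loci in both shMETTL3 lists, 22.9% were knockdown-only (95% Wilson interval 19.97% to 26.09%, counting error only), against 18.8% on the other autosomes and 18.9% genome-wide. Of the 707 loci in both shControl lists, 20.4% were control-only (17.6% to 23.5%), against 22.8% on the other autosomes and 22.6% genome-wide. Chromosome 18 thus had the highest knockdown-only share of the 22 autosomes, and 2 of the other 21 had a lower control-only share. Control-only loci made up 46.6% of its 309 group-specific loci (41.1% to 52.2%), an interval that includes equal numbers, against 57.3% (56.5% to 58.1%) on the other autosomes. The other 21 autosomes ranged from 50.3% on chromosome 21 to 61.8% on chromosome 17. The surplus of knockdown-only over control-only loci rests on having all libraries: without shControl replicate 1 the counts were 191 and 243, and without shControl replicate 2 they were 206 and 219. Without shMETTL3 replicate 1 they were 286 and 189, and without shMETTL3 replicate 2 they were 290 and 175. With 1 library left in a group fewer lists must hold a peak, so these counts grow by construction. The share on chromosome 18 was below that of the other autosomes in each case.

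**Figure D1:**
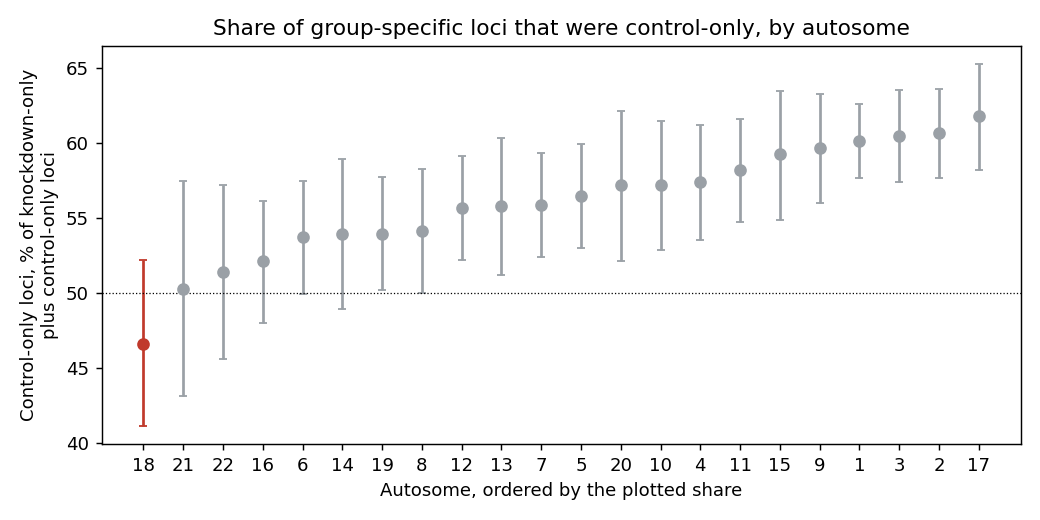
Control-only loci as a percent of knockdown-only plus control-only loci for each autosome (points) with 95% Wilson intervals (bars), autosomes ordered by this share; chromosome 18 in red. Chromosome 18 lies at 46.6%, below the 50.3% of chromosome 21.

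On chromosome 18 the overlap of covered bases between lists, as a Jaccard index, was 0.712 between the shMETTL3 lists and 0.729 between the shControl lists, against 0.527 to 0.534 for pairs of 1 shMETTL3 and 1 shControl list. The plus strand held 820 loci, with 101 knockdown-only and 97 control-only, and the minus strand 560 loci, with 64 knockdown-only and 47 control-only. In 26 cases loci of opposite strands overlapped each other.

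Most loci fell in genes, and the part in long non-coding genes was larger than on the other autosomes. Chromosome 18 is poor in genes: with 270 protein-coding genes it had 17.3 loci per Mb, and 3 of the other 21 autosomes had fewer per Mb. It had 5.11 loci per protein-coding gene, and chromosome 13 alone had more (5.81). The summit of the strongest peak fell in a single RefSeq gene on a compatible strand for 1168 loci (84.6%), in several genes for 44, only in a gene of the opposite strand for 36 and outside genes for 132 (9.57%, against 7.56% on the other autosomes). Of the singly placed loci, 81.7% were in protein-coding genes and 16.5% in lncRNA genes, against 91.1% and 6.86% on the other autosomes. Of loci in genes with a known strand, 91.7% lay in the interior, more than 500 bp from the gene start and more than 2000 bp from the gene end, against 82.9% on the other autosomes. Gene ends took 4.31% on chromosome 18 and 11.99% on the other autosomes. Exon annotation was not used here, so introns, coding sequence and UTRs are not told apart.

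The balance of knockdown-only and control-only loci varied along the chromosome. In windows of 5 Mb counted from the short-arm end, window 8 (35 to 40 Mb) had 6 knockdown-only and 29 control-only loci, and window 11 (50 to 55 Mb) had 2 knockdown-only and 14 control-only. The reverse held in window 10 (45 to 50 Mb), with 27 knockdown-only and 9 control-only, window 12 (55 to 60 Mb), with 19 and 7, and window 16 (75 to 80 Mb), with 13 and 3. Windows 8 and 11 together held 43 of the 144 control-only loci and 8 of the 165 knockdown-only loci. In the 7 windows with at least 20 group-specific loci the control-only share ran from 25% to 82.9% (median 40.6%), against 10% to 100% (median 59.0%) in the 307 such windows of the other autosomes. A share under 30% was found in 2 of the 7 windows (28.6%) and in 7.82% of the 307, and a share over 70% in 1 of the 7 (14.3%) and in 27.4% of the 307. Single genes carried much of windows 10 and 11: CTIF (9), MIR4527HG (7) and EPG5 (5) gave 21 of the 27 knockdown-only loci of window 10, and DCC gave 8 of the 14 control-only loci of window 11. In window 8 the control-only loci were spread over more genes, with 4 of the 29 in MOCOS, 4 in ZSCAN30, 3 in GALNT1 and 3 in MIR924HG.

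**Figure D2:**
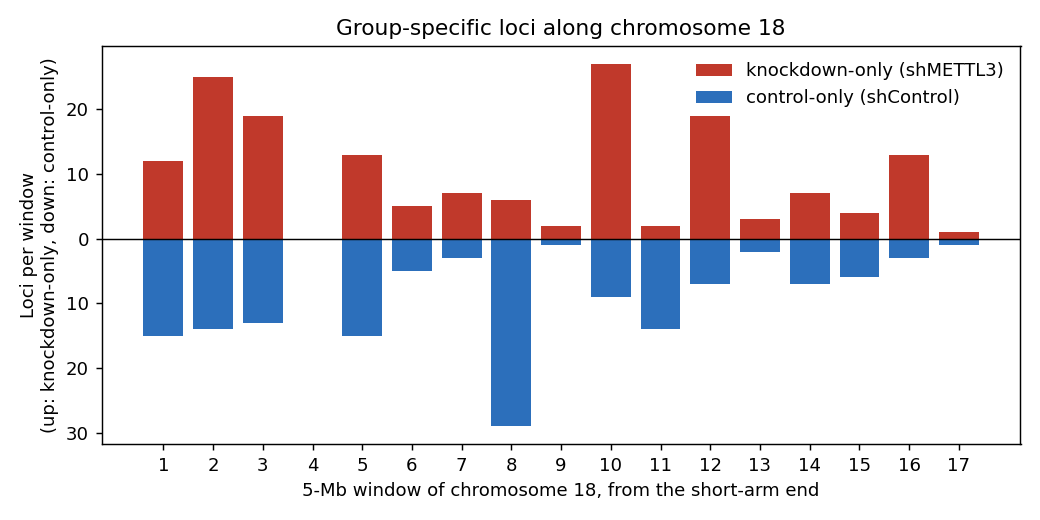
Number of knockdown-only loci (red, upward) and control-only loci (blue, downward) in each of the 17 windows of 5 Mb along chromosome 18, counted from the short-arm end. Window 10 has 27 knockdown-only and 9 control-only loci, window 8 has 6 and 29, and window 4, most of it without genes, has 0 of either.

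Many group-specific loci had a neighbour of the same class. Of the knockdown-only loci, 90 (54.5%) stood in 35 runs of at least 2 consecutive loci of that kind on 1 strand, against 46.8% on the other autosomes. Of the control-only loci, 71 (49.3%) stood in 26 such runs, against 54.8% on the other autosomes. The longest knockdown-only run, of 6 loci, lay in CTIF at chr18:48817093-48857556. The longest control-only run, of 5 loci, spanned chr18:37227926-38760219 and included KIAA1328, and runs of 4 control-only loci lay in NDC80 and in ZSCAN30. A run of 4 knockdown-only loci at chr18:14629872-14642821 fell in the pseudogenes SNX19P3 and GTF2IP8, where reads may come from near-identical copies. The title of the series concerns centromeric RNA and the centromeric histone CENPA. The single gene-free interval of at least 2 Mb, chr18:15330264-20946905, contained 0 loci, while the 5 Mb on either side held 263. The treatment of reads from repeats is not stated in the sources used here.

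By gene, the direction was the same as by locus. Of the 187 genes with a singly placed locus, 111 had a group-specific locus. More knockdown-only than control-only loci were found in 57 of them, the reverse in 46 and equal numbers in 8, and 24 had both kinds. The share of genes leaning to control-only, ties left out, was 44.7% (35.4% to 54.3%), against 55.5% on the other autosomes. In 19 of 150 genes (12.7%) every locus of both shMETTL3 lists was knockdown-only, against 9.70% on the other autosomes and 9.92% genome-wide. In 12 of 147 genes (8.16%) every locus of both shControl lists was control-only, against 9.05% on the other autosomes and 9.06% genome-wide. LPIN2, a phosphatidate phosphatase, and RAB31, a GTPase of vesicle traffic, stand in both counts, each with 1 knockdown-only and 1 control-only locus. These shares lie near their backgrounds. RNA amounts were not measured, and their part in these patterns was not tested.

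The genes with most knockdown-only loci were CTIF, MTCL1 and MIR4527HG, which together had 23 knockdown-only, 2 control-only and 38 loci in all lists. CTIF, a translation initiation factor that works with the nuclear cap-binding complex, had 9 knockdown-only, 1 control-only and 5 shared loci. Its locus at chr18:48817873-48818970, in the longest run, had fold enrichments of 5.75 and 4.30 in the shMETTL3 libraries and no peak in either shControl list. The knockdown-only locus nearest the gene end, chr18:48861950-48862256, had 2.67 and 3.51 in the shMETTL3 libraries and again no control peak. A locus in all 4 lists, chr18:48862810-48863164, lay still nearer that end. Its folds were 3.93 and 4.31 in the shMETTL3 libraries and 3.30 and 4.63 in the shControl libraries. MTCL1, which crosslinks microtubules, had 7 knockdown-only, 0 control-only and 13 shared loci. The 7 were spread over the gene, from 1269 bp to 126200 bp behind the gene start, and the one at chr18:8763082-8763530 had folds of 7.01 and 4.61 in the shMETTL3 libraries. MIR4527HG, a long non-coding host transcript of a microRNA, had 7 knockdown-only, 1 control-only and 20 shared loci of 54. Its knockdown-only loci were weak, with folds of 1.61 to 3.63 in the shMETTL3 libraries.

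EPG5, which tethers autophagosomes to lysosomes, had 5 knockdown-only and 1 control-only locus. Its strongest, at chr18:45955049-45955277, had folds of 7.02 and 6.90 in the shMETTL3 libraries. That locus and another at chr18:45967108-45967317 (7.07 and 5.31 in the shMETTL3 libraries) lay on the plus strand, while the gene's other 3 knockdown-only loci lay on the minus strand. The tables used give no strand for EPG5, so loci of either strand were accepted, and the same holds for CTIF and MIR4527HG. CCBE1, a secreted protein needed for lymphatic vessel growth, had 5 knockdown-only and 1 control-only locus. EPB41L3, which links membrane proteins to the cytoskeleton, had 4 knockdown-only and 0 control-only loci, with folds of 6.61 and 4.44 in the shMETTL3 libraries at the strongest, chr18:5489063-5489262. OSBPL1A, an oxysterol-binding protein of endosomes, had 3 knockdown-only loci, one of them 642 bp behind the gene start with folds of 6.76 and 5.54 in the shMETTL3 libraries. TMX3, a disulfide isomerase of the endoplasmic reticulum, had a knockdown-only locus at chr18:68714029-68714854 with folds of 5.86 and 6.57 in the shMETTL3 libraries.

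DCC and NPC1 led the control-only side with 15 control-only, 1 knockdown-only and 15 shared loci between them. DCC, the netrin receptor of axon guidance, had 8 control-only and 0 knockdown-only loci. The one with the highest folds lay at chr18:52640159-52641672, with no peak in the shMETTL3 lists and folds of 4.82 and 4.80 in the shControl libraries. DCC spans over a megabase, and its control-only loci ran from 90019 bp behind the gene start to 5244 bp before the gene end. NPC1, which exports cholesterol from lysosomes, had 1 knockdown-only and 7 control-only loci. The widest of these, chr18:23528160-23529228, had folds of 3.61 and 3.54 in the shControl libraries and no peak in the shMETTL3 lists.

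NDC80 had 1 knockdown-only and 4 control-only loci. The knockdown-only locus lay 7028 bp behind the gene start (2.59 and 2.63 in the shMETTL3 libraries). The 4 control-only loci stood together near the gene end, at chr18:2602986-2615021, and the strongest had 5.597 and 6.019 in the shControl libraries. NDC80 thus had a start locus of higher fold in the knockdown, and 4 loci towards its end at which the shMETTL3 lists had no peak. ZSCAN30, a zinc finger protein with a SCAN domain, had 0 knockdown-only and 4 control-only loci within chr18:35260517-35264462. MOCOS, a sulfurase of the molybdenum cofactor, had 1 knockdown-only and 4 control-only loci. MIR924HG, another microRNA host transcript, held the control-only locus that ranked first by the lower of its fold percentiles, chr18:39648806-39649001, with folds of 7.32 and 6.40 in the shControl libraries. A control-only locus of CDH2, the neural cadherin, at chr18:27982975-27983157 reached 9.52 and 6.09 in the shControl libraries. SETBP1, a chromatin-associated protein, had a control-only locus at chr18:44952848-44953243 with 6.54 and 6.02 in the shControl libraries.

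Several genes had many loci of both kinds or few of either. PTPRM, a receptor phosphatase that mediates cell adhesion, had the most loci of the chromosome, 56, with 5 knockdown-only, 4 control-only and 23 shared. ANKRD12, a nuclear ankyrin repeat protein, had 4 knockdown-only and 6 control-only loci. Its knockdown-only locus at chr18:9189256-9190646 had folds of 7.65 and 7.07 in the shMETTL3 libraries, which ranked first among knockdown-only loci. CCDC102B, a centrosomal coiled-coil protein, had 0 knockdown-only, 3 control-only and 15 shared loci. ROCK1 had 0 knockdown-only, 1 control-only and 10 shared loci, and CEP192 had 0, 1 and 8. ROCK1 has a partial pseudogene copy, so its reads may be split between copies.

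**Figure D3:**
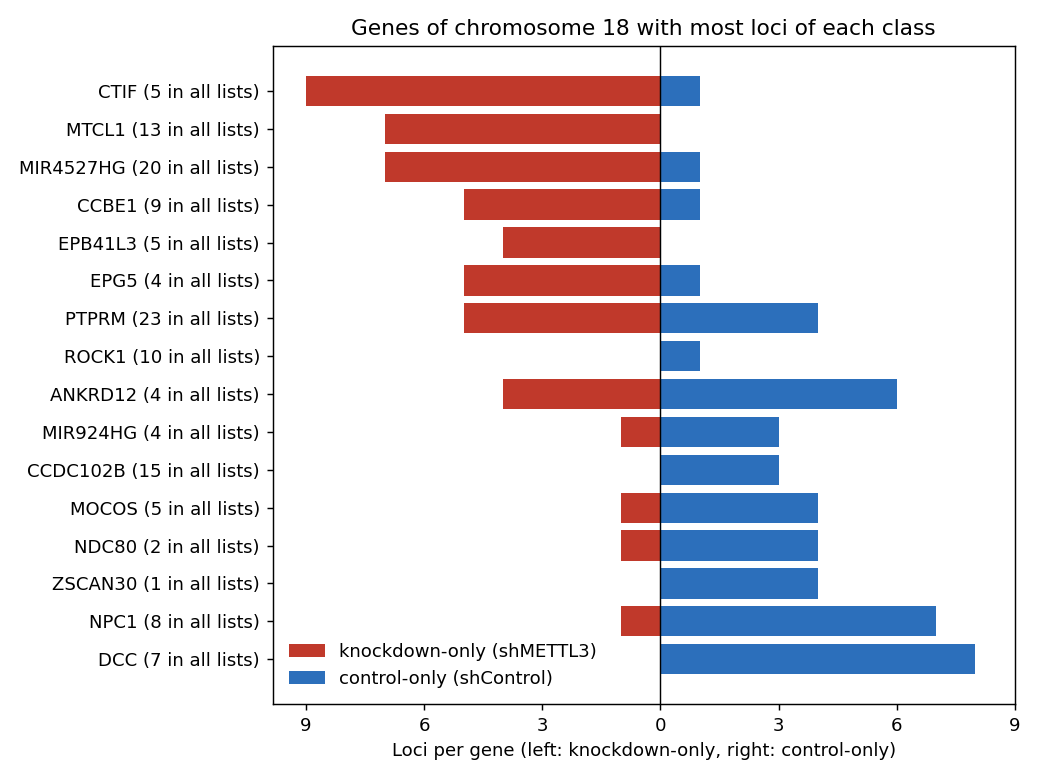
Number of knockdown-only loci (red, left) and control-only loci (blue, right) for the 16 genes that led each class, with the number of loci in all 4 lists in brackets. CTIF has 9 knockdown-only and 1 control-only locus, and DCC has 0 and 8.

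Lists of functionally related genes of the chromosome gave small counts. They stand beside a median of 4 loci per gene on chromosome 18 and 3 on the other autosomes, and beside shares over all loci of chromosome 18 of 22.9% knockdown-only and 20.4% control-only (18.9% and 22.6% genome-wide). The share of a list is likewise taken over its loci in both lists of the group. For the number of list members with a locus, the background is 147 of the 270 protein-coding genes of chromosome 18. Of 9 genes of TGF-beta and SMAD signalling, 7 had a locus (median 3 per gene). Of their loci, 6 of 28 were knockdown-only (21.4%) and 1 of 23 control-only (4.35%), and 20 were shared. NEDD4L, a ubiquitin ligase that limits SMAD signalling, gave 4 of these 6, and PIAS2, a SUMO ligase, the other 2. SMAD2, a transcription factor activated by TGF-beta receptors, had 0 knockdown-only, 0 control-only and 5 shared loci. SMAD4 and SMAD7 had 1 shared locus each and no group-specific one.

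Of 15 adhesion and matrix genes, 7 had a locus (median 7). Of their loci, 6 of 44 were knockdown-only (13.6%) and 17 of 54 control-only (31.5%), mostly in PTPRM and DCC. LAMA3, a laminin chain of the basement membrane, had 0 knockdown-only and 3 control-only loci and none in all lists. The desmosomal cadherins DSG1, DSG3, DSG4, DSC1 and DSC3 had no locus. Of 12 zinc finger genes, 10 had a locus (median 7). Of their loci, 1 of 29 was knockdown-only (3.45%) and 13 of 46 control-only (28.3%). ZSCAN30 gave 4 of the 13, ZNF236 and ZNF407 gave 3 each, ZNF532 gave 2 and ZNF519 gave 1. ZNF397 had 0 knockdown-only, 0 control-only and 5 shared loci.

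Of 13 genes of chromosome segregation, the centrosome and DNA repair, 11 had a locus (median 6), and 7 of 34 loci were knockdown-only and 7 of 34 control-only (20.6% each). ESCO1, a cohesin acetyltransferase, had 3 knockdown-only and 1 control-only locus. Of 17 transcription factor and chromatin genes, 14 had a locus (median 4). Of their loci, 12 of 38 were knockdown-only (31.6%) and 7 of 35 control-only (20%). CTDP1, a phosphatase of the RNA polymerase II tail, had 4 knockdown-only and 0 control-only loci, and TSHZ1, a zinc finger repressor, had 3 and 0. TSHZ1's 3 loci stood within the last 3053 bp of the gene, the strongest with folds of 6.31 and 4.85 in the shMETTL3 libraries. TAF4B, a subunit of the general factor TFIID, had 3 knockdown-only and 2 control-only loci.

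Of 12 kinases, phosphatases and signalling genes, 11 had a locus (median 4), and 5 of 38 loci were knockdown-only (13.2%) and 3 of 35 control-only (8.57%). PHLPP1, a phosphatase of the kinase AKT, gave 3 of the 5. Of 13 membrane traffic genes, 11 had a locus (median 5). Here 10 of 29 loci were knockdown-only (34.5%) and 11 of 33 control-only (33.3%), and NPC1 held 7 of those 11. SPIRE1, an actin nucleator, had 1 of each. ATP9B, a phospholipid flippase, had 2 knockdown-only and 0 control-only loci and none in all lists, with folds of 4.73 and 5.52 in the shMETTL3 libraries at chr18:79260255-79260732.

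Of 12 mitochondrial and metabolic genes, 9 had a locus (median 2), and 3 of 13 loci were knockdown-only (23.1%) and 7 of 16 control-only (43.8%). ME2, the mitochondrial malic enzyme, and NDUFV2, a subunit of respiratory complex I, had 2 control-only loci each and no locus in both shMETTL3 lists. The ME2 locus at chr18:50938775-50939160 had folds of 5.71 and 6.90 in the shControl libraries. ENOSF1, an enolase-related enzyme, had 1 knockdown-only and 2 control-only loci, and AFG3L2, a mitochondrial protease, had neither kind and 2 shared loci. Of 6 genes of apoptosis and NF-kB signalling, 2 had a locus. MALT1, a protease of NF-kB signalling, had 1 knockdown-only locus, and PMAIP1, a BH3-only death protein, had 2 shared loci. Counts this small carry no direction for a list.

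Few markers of any cell type held loci. Of all 270 protein-coding genes of chromosome 18, 147 had a singly placed locus. Among keratinocyte markers 0 of 8 held any, and among neuron and glia markers 1 of 7. The latter was NETO1, with 9 and 10 loci in the shMETTL3 lists and 5 and 6 in the shControl lists. Of 5 melanocyte and neural crest markers, MITF alone held loci, 7 and 9 in the shMETTL3 lists and 5 and 8 in the shControl lists. METTL3 itself, on the minus strand of chromosome 14, had loci in every list. Its shared locus at chr14:21503187-21503917 had folds of 6.98 and 6.44 in the shMETTL3 libraries and 3.16 and 3.09 in the shControl libraries. At its shared loci chr14:21501816-21502043 and chr14:21510883-21511316 the folds of the groups overlapped. A METTL3 locus at chr14:21499103-21499725 was control-only (3.75 and 2.69 in the shControl libraries). Another at chr14:21510585-21510767 was knockdown-only (4.39 and 4.14 in the shMETTL3 libraries). The locus at chr14:21500572-21501108 had a peak in shControl library 1 only. These lists do not show how far METTL3 RNA was reduced, and the part of NETO1 or MITF in the other results was not tested.

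Fold enrichment and width at the 489 loci of all 4 lists were compared between groups. Their values did not set the classes, but they are not independent of them. A wider peak overlaps others more easily, and a peak of low fold can fall under the caller's threshold. The median fold was 4.597 and 4.590 in the shMETTL3 libraries and 4.33 and 4.17 in the shControl libraries. On the other autosomes it was 4.52 and 4.46 in the shMETTL3 libraries and 4.35 and 4.14 in the shControl libraries. Relative to the other autosomes, the log2 median fold on chromosome 18 was 0.033 ± 0.010 in shMETTL3 and 0.0012 ± 0.0100 in shControl (SD, n = 2 each). The difference of 0.032 gave p = 0.333 in an exact two-sided permutation test, the smallest that 2 against 2 libraries allow. It was 0.061 without shMETTL3 replicate 1, 0.060 for peaks with a fold of at least 4 and 0.019 with a 50% reciprocal overlap. At the single locus, both shMETTL3 folds were above both shControl folds at 157 loci (32.1%, against 31.6% genome-wide) and below them at 92 (18.8%, against 21.5% genome-wide). Enrichment at shared loci on chromosome 18 thus differed between groups about as it did elsewhere.

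Widths stood further apart. The strongest peak of a shared locus had a median width of 435 and 422 bp in the shMETTL3 libraries and 343 and 378 bp in the shControl libraries. On the other autosomes the widths were 351 and 346 bp in the shMETTL3 libraries and 332 and 347 bp in the shControl libraries. Relative to the other autosomes, the log2 median width was 0.298 ± 0.016 in shMETTL3 and 0.085 ± 0.054 in shControl (SD, n = 2 each). The difference of 0.213 again gave p = 0.333 in the exact permutation test, the smallest possible. It was 0.134 without shControl replicate 1 and 0.116 when shared peaks had to overlap by 50% reciprocally. This is a difference between medians taken within each library. Taken locus by locus, the median log2 difference in width, knockdown minus control, was smaller: 0.063 on chromosome 18 and 0.003 on the other autosomes. The length covered by peaks was greater in both shMETTL3 lists than in both shControl lists at 198 shared loci (40.5%, against 29.8% genome-wide) and smaller at 99 (20.2%, against 27.7% genome-wide). Shared loci that were split into several peaks numbered 34 and 44 in the shMETTL3 lists (6.95% and 8.998%). In the shControl lists they numbered 65 and 62 (13.3% and 12.7%). On the other autosomes the split shares were 7.66% and 7.804% in the shMETTL3 lists and 8.32% and 7.595% in the shControl lists. Both shControl shares of chromosome 18 were thus above their background, while the shMETTL3 shares lay on either side of theirs. The part of such splits in the widths was not tested.

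**Figure D4:**
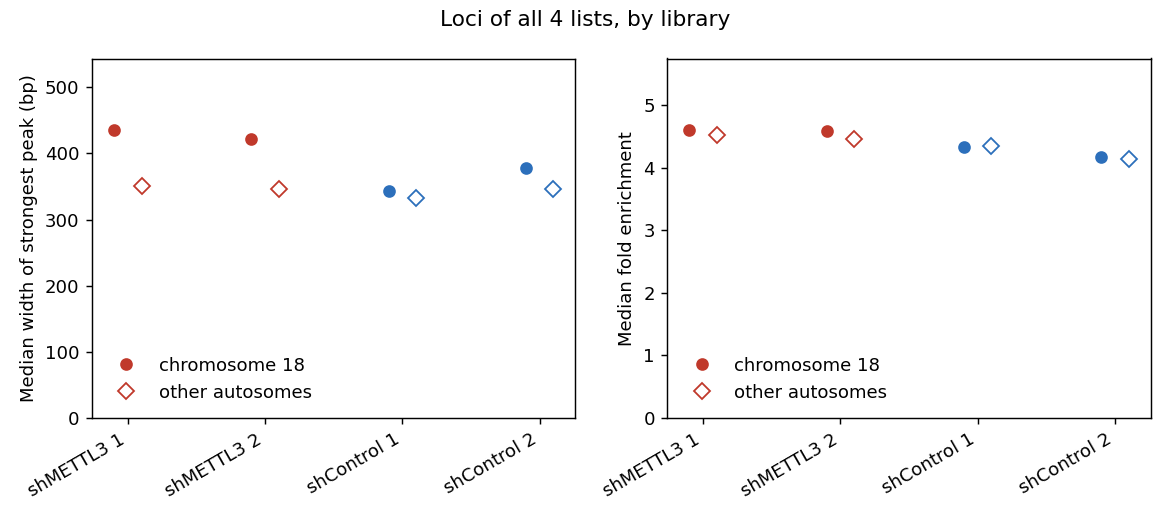
Median width of the strongest peak (left, bp) and median fold enrichment (right) at loci of all 4 lists, for each shMETTL3 library (red) and shControl library (blue), on chromosome 18 (filled circles, 489 loci) and on the other autosomes (open diamonds, 22462 loci). Widths on chromosome 18 are 435 and 422 bp in shMETTL3 and 343 and 378 bp in shControl.

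At the level of genes, shared loci covered more bases in the knockdown in MTCL1 and MIR4527HG and fewer in DCC. The group-specific loci of MTCL1 and MIR4527HG were all or mostly knockdown-only, and those of DCC were all control-only. The shared loci of MTCL1 covered 11665 and 11627 bp in the shMETTL3 lists and 8147 and 8578 bp in the shControl lists, with 11 of 13 loci longer in the knockdown. Those of MIR4527HG covered 14364 and 13439 bp in the shMETTL3 lists and 9802 and 9581 bp in the shControl lists. Those of DCC covered 3176 and 3261 bp in the shMETTL3 lists and 7818 and 7693 bp in the shControl lists, with 1 of 7 longer in the knockdown. The groups did not overlap in any of these genes, but this was not particular to them. In PTPRM, which had both kinds of group-specific loci, shared loci covered 13343 and 12998 bp in the shMETTL3 lists and 11599 and 11010 bp in the shControl lists. In ROCK1 they covered 3232 and 3226 bp in the shMETTL3 lists and 3477 and 3820 bp in the shControl lists. NPC1, with 7 control-only loci, did not follow DCC: its shared loci covered 3852 and 3642 bp in the shMETTL3 lists and 3704 and 3351 bp in the shControl lists, and 6 of 8 were longer in the knockdown.
One DCC locus, chr18:52636526-52639945, carried most of that gene's difference: it was covered over 504 and 154 bp in the shMETTL3 lists and 3398 and 3420 bp in the shControl lists. Its folds were 3.46 and 3.63 in the shMETTL3 libraries and 10.04 and 8.4002 in the shControl libraries. The order was the reverse close to the DCC start, at chr18:52341154-52342193, with folds of 13.53 and 14.002 in the shMETTL3 libraries and 7.31 and 7.12 in the shControl libraries. DCC thus had 2 shared loci near its start with higher folds in the knockdown, at the start itself by a small margin (7.614 against 7.596). Covered bases were fewer in the knockdown at both, 831 and 950 against 1040 and 1037 bp, and 781 and 922 against 942 and 952 bp at the start. The interior locus above was stronger and wider in the control. Another, chr18:52405506-52406578, was covered over 155 and 156 bp in the shMETTL3 lists and 1068 and 969 bp in the shControl lists, with overlapping folds.

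The same contrast of width was seen at other single loci. The locus at the start of MTCL1, chr18:8705309-8706396, was covered over 839 and 813 bp in the shMETTL3 lists and 329 and 255 bp in the shControl lists. An interior locus of CCBE1, chr18:59604866-59606741, was covered over 897 and 1819 bp in the shMETTL3 lists and 184 and 186 bp in the shControl lists. In the other direction, a locus of KCTD1, chr18:26546615-26548046, was covered over 408 and 151 bp in the shMETTL3 lists and 1432 and 1283 bp in the shControl lists. KCTD1, an adaptor of the BTB family, was picked after its values were seen. Genes with level coverage were also found: the shared loci of EPB41L3 covered 1034 and 1107 bp in the shMETTL3 lists and 1095 and 1063 bp in the shControl lists, although its group-specific loci were all knockdown-only.

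**Figure D5:**
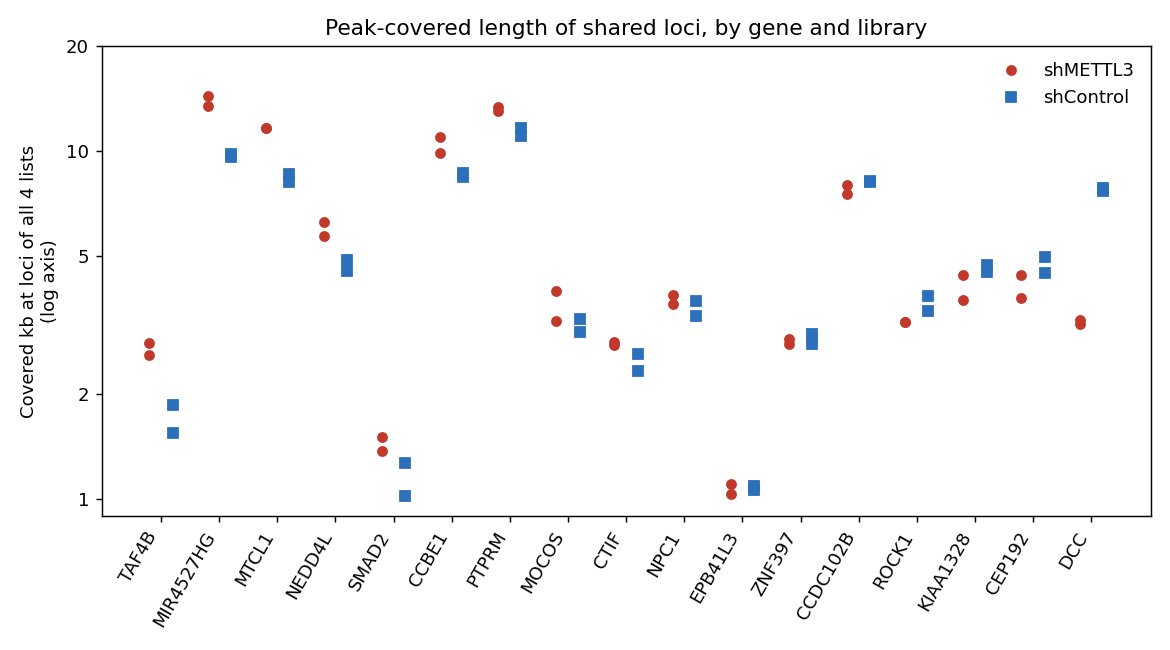
Length covered by peaks at loci of all 4 lists (kb, log axis) in each shMETTL3 library (red circles, left) and shControl library (blue squares, right), for genes named in the text that had at least 5 such loci, ordered by the ratio of group means. MTCL1 lies at 11665 and 11627 bp in shMETTL3 and 8147 and 8578 bp in shControl, and DCC at 3176 and 3261 bp in shMETTL3 and 7818 and 7693 bp in shControl.

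Ranked by the lowest of their fold percentiles in the lists, the leading loci present in every list, uncharacterized symbols left out, were found in CCBE1, CCDC102B and the pseudogene TPMTP1. The CCBE1 locus at chr18:59435302-59436189 had folds of 15.8 and 10.2 in the shMETTL3 libraries and 14.2 and 12.4 in the shControl libraries. The CCDC102B locus at chr18:68985366-68988531 had 10.4 and 9.35 in the shMETTL3 libraries and 9.20 and 8.05 in the shControl libraries. The TPMTP1 locus had 10.5 and 9.71 in the shMETTL3 libraries and 9.60 and 9.39 in the shControl libraries, and its reads may belong to the parent gene. These loci were picked for high folds, so whole classes are compared by their medians. The median fold of knockdown-only loci was 3.71 and 3.73 in the shMETTL3 libraries, against 4.60 and 4.59 for loci of all 4 lists. That of control-only loci was 3.50 and 3.41 in the shControl libraries, against 4.33 and 4.17. On the other autosomes the group-specific medians were similar, 3.72 and 3.73 for knockdown-only and 3.56 and 3.46 for control-only loci.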

How the data were processed

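The files are peak lists, 1 per library, and read depth is unknown. Per the submitters' processing notes, the tools were MACS2 2.2.7.1, HISAT2 2.1.0, Bowtie2 2.4.2, SAMtools and Trim Galore 0.6.6, with the build hg38; their roles, and the use of input libraries and of the m6A spike-in named in the labels' protocols, are not given in the sources used here. Unless the spike-in scaled them, folds count against the remaining RNA in that library, and an equal drop at all sites would leave little trace. Fold enrichment is the authors' deposited ratio at a peak's summit. The p-values and q-values were deposited as −log10 values, and the deposited score was not used. Peaks were called per library and per strand, per the deposited peak names, which call the knockdown a knockout.

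Loci were merged at 1 bp on the same strand and assigned to RefSeq gene spans by the summit with the highest fold (GRCh38.p14, 1107 genes on chromosome 18, of which 553 had a strand in the start-window table; the rest accepted both strands). Windows were 5 Mb. Intervals of shares are 95% Wilson intervals and hold counting error alone. Only fold and width of shared loci were tested, by exact two-sided permutation of 2 against 2 libraries. Python 3.11.15, pandas 2.3.3, numpy 2.4.6 and scipy 1.17.1 were used, and the merging was tested on simulated data.

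Named genes were the 8 with most knockdown-only loci, the 8 with most control-only loci, the 6 with most loci in all lists, those of the 6, 6 and 4 strongest loci of each class, those of the 2 longest runs of each kind and up to 2 per gene list with most loci, with uncharacterized symbols not ranked. A further gene that this rule names is not reported here. Other genes stand as members of a list or were chosen after their values were seen. The members, lists and rules were chosen with earlier results of these data known. Alternatives were a 50% reciprocal overlap, fold of at least 4, −log10 q of at least 20, lists of equal length, merging without strand, merging over 100 bp, leaving out each library, a replicate block and gene strand not used.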

Additional observations from a re-analysis of the deposited data

How the results depend on the processing

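On chromosome 18 the control-only share of group-specific loci stayed below that of the other autosomes under every alternative run. It was 49.4% with a 50% reciprocal overlap (56.9% on the other autosomes), 41.9% at a −log10 q of at least 20 (57.9%), 41.8% with lists of equal length (51.4%) and 33.8% at a fold of at least 4 (46.5%), where 104 loci were knockdown-only and 53 control-only. Leaving out 1 library gave 37.6% to 56.0%, and the knockdown-only surplus turned into a control-only surplus without shControl replicate 1 (56.0%) and without shControl replicate 2 (51.5%). Among single autosomes chromosome 18 did not always have the lowest share. Its rank from the lowest was 1 in the main setting, and 2 with lists of equal length and without shControl replicate 2. With reciprocal overlap, the knockdown-only share of loci in both shMETTL3 lists was 28.7% (24.2% on the other autosomes). It was 31.2% (27.5%) at a fold of at least 4. The control-only share of loci in both shControl lists was 27.3% (28.2%) with reciprocal overlap. Leaving out 1 library gave knockdown-only shares of 26.3% to 31.4% (22.7% to 26.3% on the other autosomes). Control-only shares were then 24.6% to 27.4% (28.5% to 30.2%). The difference between groups in the chromosome's share of autosomal peaks was 0.206 percentage points, and 0.229 at a −log10 q of at least 20, 0.256 at a fold of at least 4 and 0.227 with equal lengths. By gene, the share leaning to control-only was 44.7%, and 42.2% with gene strand not used. With the replicate block by library number the log2 difference stayed at 0.032 for fold and 0.213 for width, and the exact sign-flip permutation gave p = 0.5 for each, the smallest 2 pairs allow, and with 2 pairs the numbers are not known to pair the samples. Overlap, strand and gap settings do not change peak counts and gave no value for the share of peaks. Unknown read depth limits all counts, since a deeper library can yield more and wider peaks.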
